A study of Mus musculus with 6 samples.

Results

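Fat2 and 8 other large cadherin genes were examined in the medulloblastoma line MB21, mouse cells with mutant ptch that grow without attachment. The group held Fat1, Fat2, Fat3, Fat4, Dchs1, Celsr1, Celsr2, Celsr3 and Cdhr1. It was chosen by the measured fall of Fat2 in the comparison described here, and the other genes were added as relatives of Fat2 or, for Cdhr1, also for its fall. All 9 symbols matched a row among the 55416 gene identifiers of the deposited table, and all 9 were among the 17679 genes that passed the filter on low counts. Messenger RNA had been sequenced from 3 libraries of cells given DS-1-38 (DS38 in the sample names), a derivative of benzarone, at 10 uM for 1 day, and from 3 libraries given the vehicle DMSO for 1 day. The design text of the series names 5 days of treatment, whereas the sample titles and the treatment protocol give 1 day. Both groups were the same line, with the same ptch genotype, in DMEM/F12 medium with B27. Whether replicates came from different cultures is not in the labels, so a p-value here reflects the spread among these libraries alone, which may be technical.

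FAT proteins are giant cadherins with one membrane span and a long extracellular array of cadherin repeats. FAT4 binds the related cadherin DCHS1 on neighbouring cells, and this pair is the mammalian counterpart of the Fat-Dachsous system that orients cells in a tissue and, in flies, feeds into the Hippo growth pathway. CELSR proteins couple a cadherin array to a multipass adhesion receptor of the G protein-coupled family and belong to the core planar cell polarity machinery, which aligns cells and guides axons. FAT2 is known in the brain for its expression in cerebellar granule cells, the lineage from which hedgehog-driven medulloblastoma arises. CDHR1 is a smaller cadherin of photoreceptor outer segments that is also made in the olfactory bulb; it is not a giant cadherin.

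Start-site windows from RefSeq (build GRCm38.p6, 250 bases before to 50 after each annotated start) were found for 7 of the 9 genes; Dchs1 and Celsr1 had no entry. Those of Fat2 (chr11:55312208-55312507, minus strand) and Cdhr1 (chr14:37098298-37098597, minus strand) are shown because these genes had the largest falls of the group. Capitals mark each match to the E-box core CANNTG, the short motif bound by basic helix-loop-helix factors such as ATOH1.
Fat2: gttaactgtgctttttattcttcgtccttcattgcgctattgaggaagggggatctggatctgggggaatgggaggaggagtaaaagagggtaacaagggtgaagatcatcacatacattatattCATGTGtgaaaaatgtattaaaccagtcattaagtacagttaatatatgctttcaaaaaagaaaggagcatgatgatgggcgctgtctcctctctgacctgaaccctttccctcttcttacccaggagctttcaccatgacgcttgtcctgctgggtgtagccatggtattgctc
Cdhr1: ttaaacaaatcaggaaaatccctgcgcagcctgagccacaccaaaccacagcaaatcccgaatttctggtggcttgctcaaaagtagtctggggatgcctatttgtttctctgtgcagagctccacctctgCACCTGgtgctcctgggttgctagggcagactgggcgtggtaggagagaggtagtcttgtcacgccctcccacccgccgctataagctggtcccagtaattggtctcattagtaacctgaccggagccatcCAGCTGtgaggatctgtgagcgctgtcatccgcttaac
The Fat2 window held 1 E-box core, catgtg, at -125 from the annotated start, and the Cdhr1 window held 2, cacctg at -119 and cagctg at 13. Such a core was present in 72.3% of all 32851 windows of the same length, so a match is common. The GLI consensus GACCACCCA, searched on both strands, was in 0.253% of all windows and in 0 of the 7 windows of this group. The RefSeq start used for Fat2 coincides with the start of 1 of 2 GENCODE M21 transcripts and lies 24307 bases downstream of the start of the longest one, Fat2-201. The Fat1 window is likewise 14761 bases downstream of the start of its longest transcript. For these genes the window therefore need not be the promoter in use in MB21 cells.

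Library totals ranged from 38840296 to 50014681 counts in DMSO and from 60434089 to 84044428 in DS38. Depth and treatment therefore cannot be told apart, since each treated library had more counts than each control. The summed counts of a member ranged from 4726 for Fat4 to 76553 for Fat1, and none was near the detection limit. Levels are given as TMM-normalized CPM (counts scaled to a common library size), and fold changes as log2 of DS38 over DMSO with the standard error (SE) from edgeR's quasi-likelihood fit to all 17679 genes. A gene is called higher or lower at a Benjamini-Hochberg adjusted p below 0.05 over all genes. In that fit 2272 genes were called higher and 2068 lower, so 52.4% of the calls were higher; with library size alone as the scaling, this share was 68.1%. DMSO replicate 3 lay closest to the DS38 libraries for several of the genes below, and values without it are given for the members where this held. In these bulk libraries, fewer cells of a type and less RNA per cell cannot be told apart.

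Fat2 was the member with the deepest fall. DMSO replicates 1 to 3 held 91.1, 84.6 and 72.4 CPM of it, and the DS38 libraries 35.3, 34.1 and 33.9 CPM. The groups did not overlap, and the lowest DMSO library was above every DS38 library by more than the whole spread of either group. The log2 fold change of Fat2 was -1.27 ± 0.055 (SE, n = 3 and 3), which left 41.5% of the DMSO level. Because the group was built around this fall, it is given as a description without a test. The coefficient of variation of Fat2 was 11.5% in DMSO and 2.28% in DS38. Deposited counts of Fat2 were 2818, 2090 and 2886 in the DS38 libraries against 4451, 4066 and 2799 in DMSO. In the fold change of Fat2, 16 of 16 processing alternatives gave a fall, from -1.19 without DMSO replicate 1 to -1.35 without DMSO replicate 3. They reuse the libraries in which Fat2 was chosen and are no separate test of its fall.

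**Figure D1:**
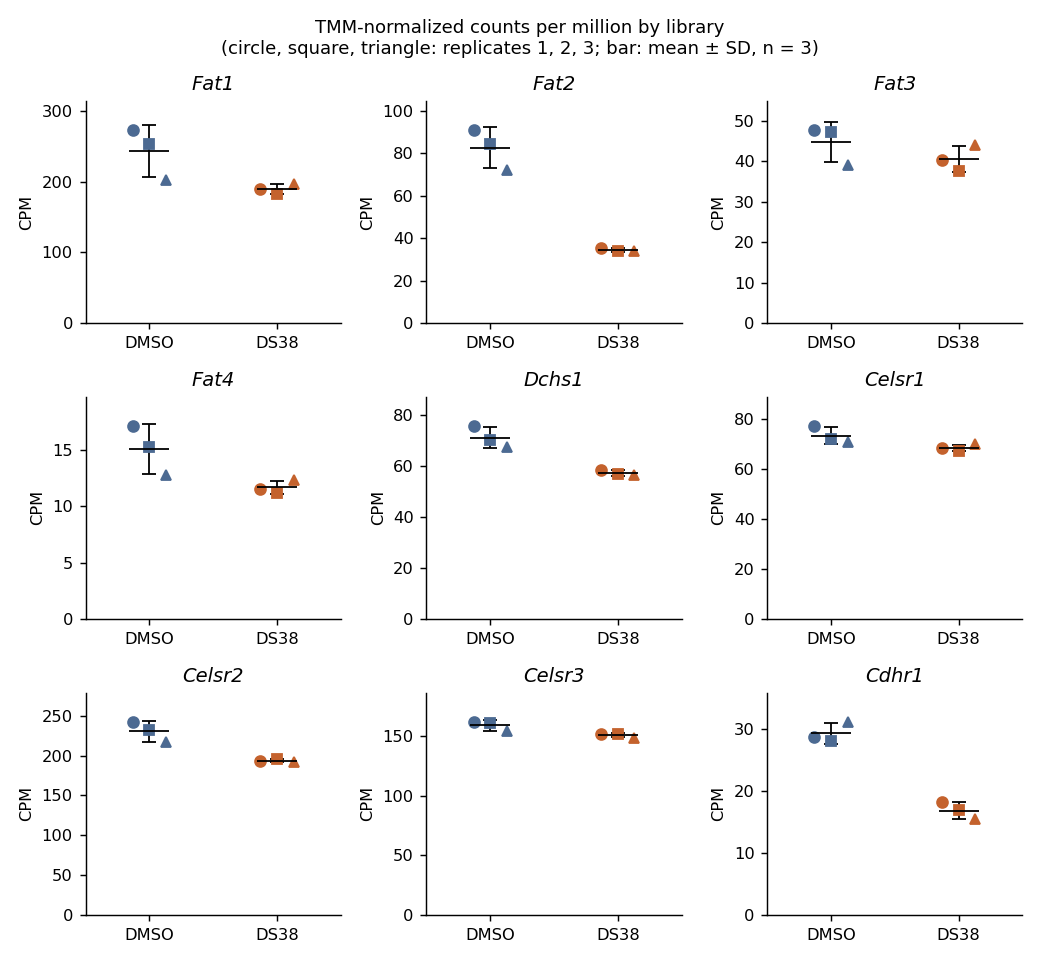
TMM-normalized CPM (vertical axes, from 0) of each gene in the 3 DMSO and 3 DS38 libraries; circles, squares and triangles are replicates 1, 2 and 3, and bars are the mean ± SD of 3 libraries. Fat2 sits at 72.4 to 91.1 CPM in DMSO and at 33.9 to 35.3 CPM in DS38, whereas Fat3 is the single gene of the 9 whose groups overlap.

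The other FAT receptors changed less. Fat1, the most abundant FAT gene here, was at 273, 254 and 203 CPM in DMSO and at 189.8, 183 and 197 CPM in DS38. The groups did not overlap, but DMSO replicate 3 was only slightly above the highest DS38 library. Its log2 fold change was -0.36 ± 0.062 (edgeR adjusted p = 2.046e-04), and it was -0.47 without DMSO replicate 3. The call of Fat1 was lost with robust dispersion estimates (edgeR adjusted p = 0.129).

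Fat4, the partner of DCHS1, was the least abundant member, at 17.2, 15.3 and 12.8 CPM in DMSO and 11.6, 11.2 and 12.3 CPM in DS38. It fell by 0.37 ± 0.079 on the log2 scale (edgeR adjusted p = 0.00137), with DMSO replicate 3 again nearest to the treated libraries. Without that replicate the log2 fold change of Fat4 was -0.47. Fat3, which helps to shape neuronal processes in the retina, was at 47.8, 47.3 and 38.99 CPM in DMSO and 40.3, 37.6 and 43.9 CPM in DS38. Here the groups overlapped, since 2 DS38 libraries were above DMSO replicate 3. The log2 fold change of Fat3 was -0.14 ± 0.060 (edgeR adjusted p = 0.0969). Without DMSO replicate 3 it was -0.23 and passed (edgeR adjusted p = 5.495e-04); without DS38 replicate 3 it was -0.20 and also passed (edgeR adjusted p = 0.0357). Without DMSO replicate 1 or DS38 replicate 2 it was -0.09 and did not (edgeR adjusted p = 0.363 and 0.372).

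Dchs1, which encodes the cadherin that FAT4 binds, was at 75.7, 70.1 and 67.3 CPM in DMSO and 58.5, 56.6 and 56.2 CPM in DS38. The groups stood well apart. Dchs1 fell by 0.32 ± 0.039 on the log2 scale (edgeR adjusted p = 3.786e-06), and was called in 16 of 16 alternatives. Its log2 fold change without DMSO replicate 3 was -0.35. Both members of the FAT4-DCHS1 pair were thus called lower. Dchs2, the paralogue of Dchs1, averaged 5.09 ± 0.618 CPM in the controls (SD, n = 3) and 4.35 ± 0.448 CPM after treatment. That difference of -0.23 ± 0.11 on the log2 scale missed the threshold (edgeR adjusted p = 0.137). Fjx1, the mammalian relative of the Golgi kinase that modifies Fat and Dachsous in flies, was at 12.1 ± 0.386 and 12.2 ± 0.338 CPM (log2 fold change 0.010 ± 0.062; edgeR adjusted p = 0.931).

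Among the planar polarity receptors, Celsr2 was at 243, 232 and 216 CPM in DMSO and 193, 195 and 192 CPM in DS38. It fell by 0.25 ± 0.034 on the log2 scale (edgeR adjusted p = 1.125e-05), without overlap and in 16 of 16 alternatives. The log2 fold change of Celsr2 was -0.30 without DMSO replicate 3. Celsr3, which is known for its part in axon tract formation, was at 162, 161 and 154 CPM in DMSO and 152, 151 and 149 CPM in DS38. The groups of Celsr3 did not overlap, yet the difference of -0.08 ± 0.030 on the log2 scale was small and missed the threshold (edgeR adjusted p = 0.0549). It passed in 7 of 16 alternatives, among them the omission of DMSO replicate 3, which left -0.11 (edgeR adjusted p = 0.00547).

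Celsr1 was at 77.4, 72.0 and 71.0 CPM in DMSO and 68.4, 67.4 and 69.9 CPM in DS38, so the nearest libraries of both groups almost touched. Its log2 fold change was -0.10 ± 0.036 (edgeR adjusted p = 0.0451). That call was lost in 10 of 16 alternatives, among them the replicate number as a block (edgeR adjusted p = 0.0665) and the omission of DMSO replicate 1, which left -0.06 (edgeR adjusted p = 0.272). It was kept without DMSO replicate 3, at -0.13 (edgeR adjusted p = 0.00912).

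Cdhr1 was at 28.6, 27.995 and 31.1 CPM in DMSO and 18.1, 16.8 and 15.4 CPM in DS38, again without overlap. The log2 fold change of Cdhr1 was -0.80 ± 0.058, which left 57.4% of the DMSO level. In contrast to the FAT genes, DMSO replicate 3 was the library with the most Cdhr1. Cdhr1 had been picked for this fall too, so it is described without a test. Cdhr1 is outside its classical tissues here: the photoreceptor and mitral cell markers summed to 2.07 to 3.23 CPM in DMSO and 2.68 to 3.41 CPM in DS38. Rom1 and Eomes, the most abundant of those markers, were at 1.34 ± 0.425 and 0.395 ± 0.104 CPM in DMSO, and 0 of 4 tested markers of that list were called.

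In all, 7 of the 9 members were called lower and 0 higher, against 11.7% of all genes tested called lower and 12.9% called higher. In 8 of the 9, every DS38 library was below every DMSO library, which held for 17.9% of all genes; the opposite held for 20.7%. Among tested genes of at least 10000 bases, 36.6% were called lower, 9.79% higher and 46.4% in either direction, 39.5% had every DS38 library below every DMSO library and 14.8% had every one above. Since the same comparison had chosen the group, nothing is read from these shares. Of the 7 members other than Fat2 and Cdhr1, 5 were called lower, with a median log2 fold change over the 7 of -0.25, from -0.37 to -0.08; the median over all genes tested was 0.004. The number of members called lower ranged from 6 to 9 over the alternatives and was 9 without DMSO replicate 3. In that setting 2474 of all genes were called lower, against 2068 as reported.

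To compare levels between genes, CPM was divided by the gene length of the deposited table. That length was 14528 bases for Fat2, 21478 for Fat3, the longest, and 4332 for Cdhr1, the shortest. In DMSO, Celsr2 was the highest on this scale, at 20.01 ± 1.14 CPM per kilobase (SD, n = 3), followed by Fat1 at 15.5 ± 2.32 and Celsr3 at 13.2 ± 0.374. The ranges of Fat1 and Celsr3 overlapped. A middle tier held Cdhr1 (6.75 ± 0.383 CPM per kilobase), Dchs1 (6.43 ± 0.384), Celsr1 (6.32 ± 0.297) and Fat2 (5.69 ± 0.655), and each of these overlapped with its neighbours in the order. Fat3 at 2.08 ± 0.230 and Fat4 at 0.878 ± 0.128 CPM per kilobase stood apart below them. In vehicle-treated cells Fat2 was therefore a mid-level member, far below its paralogue Fat1.

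In DS38, Dchs1 (5.17 ± 0.110 CPM per kilobase) and Celsr1 (5.90 ± 0.109) kept to the middle tier, while Fat2 stood at 2.37 ± 0.0540, next to Fat3 at 1.89 ± 0.147. The lowest DS38 library of Fat2, at 2.33 CPM per kilobase, was still above the highest of Fat3, at 2.04. Cdhr1 moved from the fourth to the sixth place, at 3.87 ± 0.311 CPM per kilobase. Fat2 was in place 7 in both groups, so its level fell without a change of place.

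**Figure D2:**
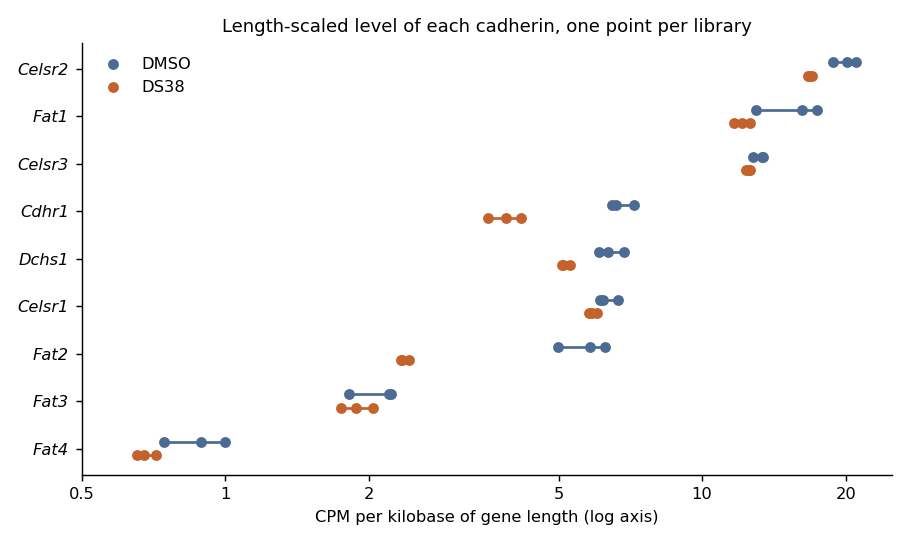
CPM per kilobase of gene length (horizontal log axis) for each gene, with 1 point per library and a line over the range of the 3 DMSO or 3 DS38 libraries. Fat2 lies at the low end of the middle tier of Cdhr1, Dchs1 and Celsr1 in DMSO (4.98 to 6.27) and next to Fat3 in DS38 (2.33 to 2.43). Its place in the order is 7 in both groups.

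Ratios within a library do not depend on how libraries are scaled to each other. Of the summed CPM per kilobase of the 4 FAT genes, Fat2 made up 23.3%, 23.2% and 24.3% in the DMSO libraries, against 14.2%, 14.3% and 13.2% in those of DS38. DMSO replicate 3, which was low in Fat2 CPM, was not low in this share, because Fat1 was low there as well. The ratio of Fat2 to Fat1 was 0.368 ± 0.0145 in DMSO and 0.196 ± 0.00907 in DS38 (SD, n = 3). The share of Fat1 was 64.2 ± 0.833% in DMSO and 71.1 ± 0.175% in DS38. These ratios rest on the comparison that chose Fat2 and are given without a test.

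The CELSR genes kept their order. Celsr2 made up 50.6 ± 0.646% of the summed CPM per kilobase of the 3 CELSR genes in DMSO and 47.7 ± 0.286% in DS38. Celsr3 was at 33.4 ± 0.651% and 35.5 ± 0.294%, and Celsr1 at 16.0 ± 0.351% and 16.8 ± 0.377%. The composition of the CELSR genes thus shifted by a few percentage points. That of the FAT genes shifted more, but it includes Fat2, which had been chosen for its fall.

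**Figure D3:**
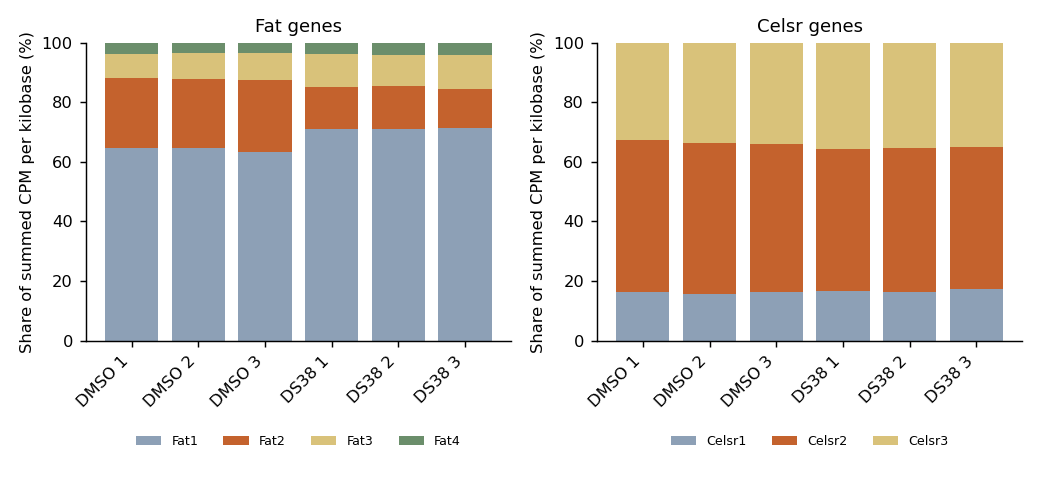
Share (vertical axis, percent) of each gene in the summed CPM per kilobase of the 4 FAT genes (left) and the 3 CELSR genes (right), 1 bar per library. Fat2 takes 23.2% to 24.3% of the FAT total in each DMSO library and 13.2% to 14.3% in each DS38 library.

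The FAT, DCHS and CELSR genes have some of the longest transcripts in the genome, and more long genes were called lower than higher in DS38. Of 1389 tested genes with a length of at least 10000 bases, 67.3% had a fold change below 0. Their median log2 fold change was -0.07. In genes of 2000 to 4000 bases, 7.56% were called lower and 16.4% higher. Genes below 1000 bases also had more lower than higher calls, 6.44% against 2.05%, and a median of -0.10. Relative to the DMSO mean, the median of the long genes was 0.04, 0.008 and -0.05 (log2) in DMSO replicates 1, 2 and 3 and -0.06 in each DS38 library, so DMSO replicate 3 was near the DS38 libraries in this measure as well. The part of transcript length, or of RNA quality, in the falls of these cadherins was not tested.

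Fat2 had been chosen for its fall in this comparison, so its place among the long genes is given as a description. Of the 1389 long genes, 0 had a lower fold change than Fat2, and 4, Fat2 included, were below -1. Over all lengths, 67 of 17679 genes were lower than Fat2. By contrast, 85 long genes were lower than Fat4, 97 lower than Fat1, 131 lower than Dchs1 and 633 lower than Celsr3. A correction of each library for its trend on gene length, within edgeR, left Fat2 at -1.20. Fat1 and Fat4 were at -0.27, Dchs1 at -0.29 and Celsr2 at -0.22 after it, and these 4 genes were still called lower. The same correction took Fat3 to 0.004 ± 0.048, Celsr1 to -0.07 ± 0.034 and Celsr3 to -0.04 ± 0.028, none of which passed (edgeR adjusted p = 0.966, 0.171 and 0.325). Cdhr1, with 4332 bases, was at -0.84 after it.

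**Figure D4:**
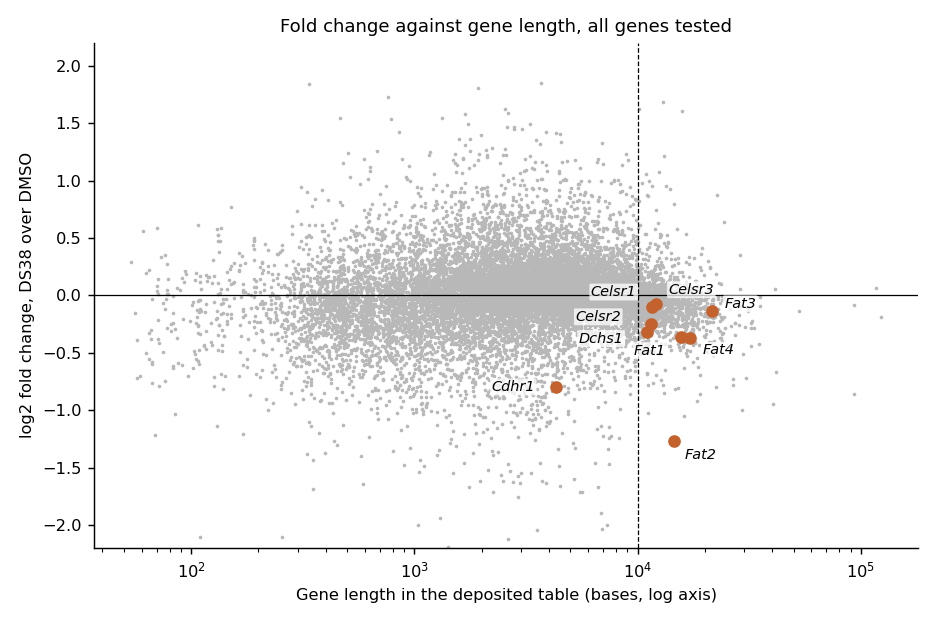
log2 fold change of DS38 over DMSO (vertical axis) against gene length in bases (horizontal log axis) for all genes tested (grey; 5 genes beyond ± 2.2 are not drawn) with the 9 cadherins in orange; the dashed line marks 10000 bases. Fat2, which was chosen for its fall, lies at -1.27, below every other gene to the right of the line. Celsr1, Celsr3 and Fat3 lie within the bulk of long genes.

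Counting could mix paralogues only where they share sequence. In GENCODE M21 transcripts, 0 of the 14479 stretches of 50 bases of Fat2 occurred in any other gene, and 0 stretches of any member occurred in another member. Fat4 shared 1347 and Fat1 397 such stretches with overlapping antisense genes, and Dchs1 461 with the pseudogene Gm15645, while Celsr3 shared 17 with a microRNA gene. The neighbours of Fat1, Fat4 and Dchs1 held 69 counts or fewer each in all 6 libraries together, against 76553 for Fat1, 22594 for Dchs1 and 4726 for Fat4. The strand setting of the counting is not given in the sources used here, so reads of overlapping genes cannot be assigned with certainty.

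Listed components of the Fat-Dachsous and Hippo pathways, other than the members, did not follow Fat2 as a group. Fat4 and Dchs1, both called lower above, are members and are not in this list. The Hippo pathway is a kinase cascade that holds back the coactivators YAP1 and TAZ (gene Wwtr1), which act through TEAD factors. Of 30 listed genes 28 were tested, 4 were called higher, 6 lower and 18 not at all, against 24.5% of all genes called in either direction, with a list median of -0.03. Among the lower ones were the YAP-binding scaffold gene Amot (44.8 ± 1.63 to 37.4 ± 0.771 CPM) and the kinase activator gene Mob1b (103 ± 6.64 to 88.9 ± 3.40 CPM). Tead4 and Tead1 fell by 0.35 ± 0.087 and 0.13 ± 0.036 on the log2 scale (edgeR adjusted p = 0.00516 and 0.0119). Lix1l rose by 0.36 ± 0.043, the LIM-domain gene Ajuba by 0.28 ± 0.046, Tead3 by 0.36 ± 0.091 and Amotl2 by 0.15 ± 0.036. The count of lower genes was 3 without DMSO replicate 1, DMSO replicate 2, DS38 replicate 1 or DS38 replicate 2, and 9 with the length correction. The count of higher genes was 9 with library size alone. The background moved as well. All genes called lower numbered 1706, 1614, 1572 and 1549 in those omissions and 2383 with the length correction, against 2068 as reported. All genes called higher numbered 3289 with library size alone, against 2272 as reported. The YAP targets Ccn2 and Ankrd1, with 2 and 13 counts in all, were too low to test. Ccn1, also a YAP target, had 331 counts in all. Its log2 fold change of 0.60 ± 0.23 missed the threshold (edgeR adjusted p = 0.0605).

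The partners of the CELSR receptors in planar polarity also moved in both directions. Of 16 listed genes 15 were tested, 3 were called higher, 2 lower and 10 not at all, with a median of -0.010. That is 33.3% called, against 24.5% of all genes. Fzd3, the Frizzled receptor that acts with CELSR proteins in axon guidance, fell from 276 ± 21.1 to 235 ± 7.12 CPM (edgeR adjusted p = 1.754e-04). Daam1, a formin downstream of Dishevelled, fell by 0.15 ± 0.028 on the log2 scale. Ankrd6, Prickle1 and Vangl1 rose by 0.30 ± 0.068, 0.16 ± 0.058 and 0.14 ± 0.050. Prickle1 and Vangl1 passed narrowly (edgeR adjusted p = 0.0445 and 0.0428), and 1 gene rose with DESeq2, with RLE scaling, with the length correction, or without DMSO replicate 2 or DS38 replicate 2. Over all genes, 1851, 2111, 2006, 1706 and 1686 were called higher in these settings, against 2272 as reported.

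Other cadherins were called in both directions. Of 40 listed classical cadherins, protocadherins and relatives 22 were tested, 5 were called higher and 4 lower, with a median log2 fold change of 0.002. The share called was 40.9%, against 24.5% of all genes. Pcdh15, the tip-link protocadherin of hair cells, fell from 71.5 ± 4.69 to 54.2 ± 2.03 CPM (edgeR adjusted p = 4.362e-07). Cdh2, N-cadherin, fell from 239 ± 8.96 to 202 ± 1.10 CPM, and Cdh20 and Cdh11 fell by 0.13 ± 0.028 and 0.27 ± 0.081 on the log2 scale. Cdh22 rose from 4.86 ± 0.0840 to 8.06 ± 0.488 CPM and Cdh13, a cadherin held by a lipid anchor, by 0.34 ± 0.068. Pcdh17 and Pcdh10 rose as well, from 0.479 ± 0.193 and 0.136 ± 0.0405 CPM, levels at which few reads were counted, and Pcdh9, named after its value was seen, by 0.21 ± 0.069. With a filter of 5 CPM in 3 libraries, which drops Pcdh17 and Pcdh10, 3 of the list were called higher and 6 lower. With RLE scaling and with the length correction 6 were lower as well. All genes called lower numbered 1918, 2227 and 2383 in these settings, against 2068 as reported. With that filter 1931 of all genes were called higher, against 2272.

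Because FAT2 marks granule cells, the markers of that lineage are given beside it. Zic1 and Atoh1, the most abundant of 9 markers, were at 666 ± 21.7 and 327 ± 8.37 CPM in DMSO, and Gabra6, which marks mature granule neurons, had 0 counts in the 6 libraries together, a limit of 0.00831 CPM. The summed level of the list was 1969 to 2027 CPM in DMSO and 2026 to 2047 CPM in DS38. Of 8 tested markers 3 were called higher and 3 lower, against 12.9% and 11.7% of all genes; these 6 are named after their values were seen. Atoh1, the master regulator of granule progenitors, rose to 411 ± 5.49 CPM (log2 fold change 0.33 ± 0.028), and Barhl1 and Meis1 rose by 0.27 ± 0.030 and 0.11 ± 0.028. Neurod1, which drives granule neuron differentiation, fell by 0.37 ± 0.036, Zic2 by 0.14 ± 0.029 and Zic1 by 0.10 ± 0.030. This list mixes genes of progenitors and of differentiation, so nothing is read from its lack of a common direction. The part of cell state in the fall of Fat2 was not tested.

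Markers of other cells ranged from abundant Slc1a3 to none at all. Of the astrocyte list, Slc1a3 was at 144 ± 4.29 CPM in DMSO and Gfap at 4.33 ± 0.241, and the sum was 144 to 152 CPM in DMSO and 143 to 149 CPM in DS38. Slc1a3 made up most of that sum. Aqp4 and Aldh1l1 had 3 and 8 counts in all and were not tested, and Aldoc was at 0.809 ± 0.161 CPM in DMSO. Of 3 tested members of that list, 1 was called, Gfap (higher, log2 fold change 0.32 ± 0.096). The oligodendrocyte list summed to 23.4 to 24.4 CPM in DMSO and 25.9 to 28.6 CPM in DS38, with Olig1 at 19.9 ± 0.480 CPM in DMSO. Sox10 had 12 counts in all and was not tested, and Olig2 and Mbp were at 1.37 ± 0.353 and 0.313 ± 0.0491 CPM in DMSO. Of 4 tested members of that list, 1 was called, Olig1 (higher, log2 fold change 0.20 ± 0.052). Over all genes tested, 12.9% were called higher and 24.5% in either direction. Microglial, endothelial and ependymal markers summed to at most 0.569, 1.003 and 4.96 CPM in any library. Only 1, 2 and 1 of them were tested, with 0 calls, so most of these markers were too low to test. Kdr, Cldn5, Tmem212 and Ccdc153 were at 0 counts. The most abundant markers of these lists were Tmem119 and Aif1 (0.178 and 0.124 CPM in DMSO), Pecam1 and Cdh5 (0.448 and 0.270 CPM) and Foxj1 and Rsph1 (3.97 and 0.0416 CPM).

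The genes whose profiles over the 6 libraries lay closest to that of Fat2 were sought among 9983 named genes with a mean of at least 5 CPM, by the root mean square difference of centred log2 CPM. Among the closest were Vmn2r-ps94 (difference 0.182), Serpinb6e (0.187), Nos1 (0.189) and Pclo (0.245). Vmn2r-ps94 and Serpinb6e belong to families with near-identical copies, and their counts are uncertain. Nos1, neuronal nitric oxide synthase, went from 6.98, 6.78 and 6.31 CPM in DMSO to 3.25, 3.67 and 3.02 CPM in DS38. Pclo, a long presynaptic scaffold gene, went from 82.9, 72.8 and 60.3 CPM to 43.3, 38.0 and 43.5 CPM, with its lowest DMSO value in replicate 3 as for Fat2.

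**Figure D5:**
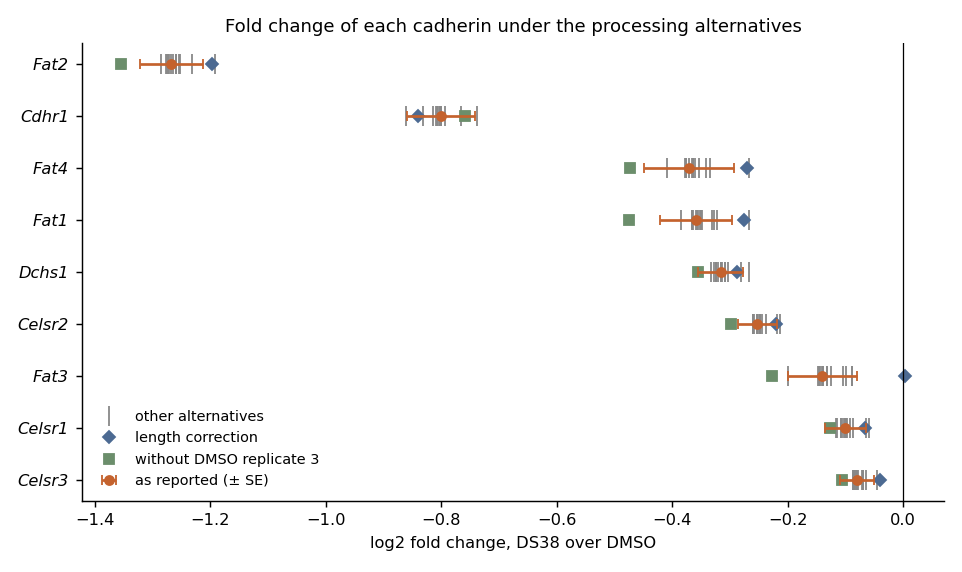
log2 fold change of DS38 over DMSO (horizontal axis) of each gene as reported (orange, with the SE), with the length correction (blue), without DMSO replicate 3 (green) and under the other alternatives (grey ticks). Fat2 and Cdhr1, which were chosen for their falls in these libraries, range from -1.35 to -1.19 and from -0.86 to -0.74. Each alternative reuses the same libraries, so these ranges are no separate support for the falls. Fat3 reaches 0.004 with the length correction.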

How the data were processed

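RNA of 6 MB21 libraries, 3 DMSO and 3 DS38, was deposited by the authors as whole-number counts and a length per gene in 1 table. The submitters' processing notes name, without role or order, edgeR, R 4.1.0, Subread 2.0.3, featureCounts and STAR 2.7.9a, and the builds GRCh38.p13 and GRCm39; strand and multi-mapping settings were not given in the sources used here. Symbols were matched for 52083 of 55416 identifiers. The deposited length equalled the union of GENCODE M21 exons (GRCm38) for 8 of the 9 members; Celsr1 differed (11631 against 11007 bases).

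Genes were filtered with filterByExpr (minimum count 10, total 15), scaled by TMM and tested two-sided with edgeR 4.0.16 in R 4.3.3, with group as the sole term. SD is over 3 libraries. Within-group pairs of libraries differed by more than sampling noise. Their chi-square over its degrees of freedom was 8.57 to 9.61 in DMSO and 2.91 to 3.56 in DS38. Against the DS38 libraries this ratio was 10.7 to 12.9 for DMSO replicate 3 and 24.2 to 28.9 for DMSO replicates 1 and 2. The members and gene lists were chosen with earlier results of these data known. The text names all members, the 4 smallest adjusted p per direction of each pathway or cadherin list, the 2 most abundant of each marker list and the 5 genes most like Fat2; 2 genes that this rule names are not reported here. Dchs2, Fjx1, Ccn1, Ccn2, Ankrd1, Aqp4, Aldh1l1, Aldoc, Sox10, Olig2 and Mbp were added after their values were seen. Alternatives were DESeq2 1.42.0, limma-voom (limma 3.58.1), RLE scaling, library size alone, no filter, 5 CPM in 3 libraries, the replicate block, robust dispersion, a length correction (natural spline, 5 degrees of freedom), thinning to the smallest total, and leaving out each library. The edgeR, DESeq2, limma-voom and length-corrected fits were also run on simulated counts. Those counts had the same dispersion in every gene and library, no length trend and no deviant library. They therefore cannot show how the fits handle such features. Figures used Python 3.11.15 and matplotlib 3.10.9. A count of 0 was taken as at most 3 counts of the summed totals; this limit covers counting error only.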

Additional observations from a re-analysis of the deposited data

How the results depend on the processing

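Fat4, Dchs1 and Celsr2 were called lower in 16 of 16 alternatives and Fat1 in 15. The fold change of Fat2 ranged from -1.35 to -1.19 over the omissions of single libraries. Fat3 turned from -0.14 to 0.0038 with the length correction, whose construction removes each library's trend on gene length. Among the markers of other cells, Pecam1 turned to -0.072 and Foxj1 to 0.13 without DMSO replicate 3, neither of which passed, and without DMSO replicate 1 they were at 0.78 and -0.16. The Hippo list had 9 genes higher with library size alone, and its lower count was 9 with the length correction and 3 to 8 over the omissions of single libraries. The planar polarity list had 1 gene higher with DESeq2, RLE scaling or the length correction, and 1 to 3 over the omissions. All genes called higher numbered 3289 with library size alone and 1640 to 2437 over the omissions, against 2272 as reported. All genes called lower numbered 2383 with the length correction and 1549 to 2474 over the omissions, against 2068. The cause of these shifts was not tested. Long genes called lower numbered 508, and 334 with the length correction. Replicate numbers did not pair the libraries: deviations of same-numbered libraries correlated across genes at 0.07, 0.03 and -0.22. With the replicate block Fat2 was at -1.26 and 6 members were called lower, Celsr1 being lost. In that setting 1902 of all genes were called lower. Of 626 values for 40 other named genes, 590 kept their direction and side of the threshold, 33 lost it, 1 gained it and 2 changed direction.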
